A study of Mus musculus with 12 samples.

Results

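Iron handling in macrophages was described here through 10 genes picked by symbol for their roles in moving, storing and sensing iron, Tfrc, Slc11a1, Slc11a2, Ftl1, Fth1, Ncoa4, Slc40a1, Hmox1, Ireb2 and Aco1, of 25230 genes in the expression table. They were chosen with earlier results of these data known. The cells were macrophages (BMDMs) that grew out of mouse femur and tibia marrow in medium with the growth factor M-CSF and were typed by flow cytometry as positive for CD11b and F4/80, and their RNA was sequenced. There were 4 groups of 3 libraries each: wild-type cells with PBS, wild-type cells with the fungus Candida albicans, Piezo1 knockout cells with PBS and Piezo1 knockout cells with Candida albicans. Piezo1 is a mechanically gated cation channel. The titles of the knockout controls name DMSO where their treatment label names PBS, and they are called PBS here. The knockout allele, any Cre driver, the strain and age of the mice, and the dose and duration of the fungus are not in the labels. No label says that the 3 libraries of a group came from separate mice or cultures, so each p-value speaks of library-to-library spread alone, which may be technical.

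Macrophages take up iron bound to transferrin through the transferrin receptor, free iron from the heme of engulfed red cells, store it in ferritin and return it to the plasma through ferroportin. During infection they also withhold iron from microbes, many of which need host iron to grow. When cell iron is low, iron regulatory proteins bind a hairpin in certain transcripts called the iron-responsive element. Bound near the start of a transcript they block its translation, as in ferritin and ferroportin, and bound behind the coding part they protect it from decay, as in the transferrin receptor. Only transcript levels were measured here, and ferritin and ferroportin protein can change without them.

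The iron-responsive elements that an exact pattern found among the 10 genes are printed because they mark transcripts on which the iron regulatory proteins are known to act. The elements were found in the untranslated regions of GENCODE transcripts (GRCm38, release M21) as a C, 5 bases, the loop CAGTGN and 5 bases that pair with the 5 before the loop (Watson-Crick or G with T, no mismatch). The search ran on the transcript strand alone, since the element acts as RNA. Each line is read 5′ to 3′ on the transcript strand, and capitals mark the loop. The elements of Fth1 at chr19:9982732-9982760 (+), of Ftl1 at chr7:45459779-45459807 (-) and of Slc40a1 at chr1:45925465-45925493 (-) lie in exons of the 5′ untranslated region. The 4 elements of Tfrc lie in its 3′ untranslated region at chr16:32631219-32631247, chr16:32631598-32631626, chr16:32631663-32631691 and chr16:32631710-32631738 (+). Of the annotated transcripts with the region searched, the element was in 4 of 5 for Fth1, 1 of 2 for Ftl1 and 1 of 4 for Slc40a1. Each Tfrc element was in 1 of 2. Levels below are per gene and do not separate transcripts with and without an element.
Fth1: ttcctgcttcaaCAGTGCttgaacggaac
Ftl1: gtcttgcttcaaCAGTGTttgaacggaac
Slc40a1: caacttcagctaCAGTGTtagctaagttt
Tfrc, the first: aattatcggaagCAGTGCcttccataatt
Tfrc, the second: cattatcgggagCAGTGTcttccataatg
Tfrc, the third: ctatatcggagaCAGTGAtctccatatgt
Tfrc, the fourth: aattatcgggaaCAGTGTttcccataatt

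Position by position, the Fth1 and Ftl1 elements had the same base at 26 of 29 positions, and each shared 13 of 29 with that of Slc40a1. These counts include the C before the stem and the loop letters CAGTG, which the search itself fixes in every hit. The whole pattern was in the 5′ untranslated region of 18 of 10247 tested genes that have one (0.176%) and in the 3′ untranslated region of 83 of 10356 (0.801%). The loop letters alone were in 34.2% and 76.1% of them. The other 6 genes, Slc11a2 among them, had no match to the whole pattern, which says only that this arrangement of letters is not in the annotated regions searched. An element with a mismatch or an extra bulged base in its stem would be missed, so these genes may still carry an element.

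Levels are given as TPM, the transcript level scaled by transcript length and library total, so that genes can be compared with each other. Libraries held 16400119 to 25741091 reads in genes. Piezo1 was at 135 ± 4.69 TPM (SD, n = 3) in wild-type and 65.4 ± 2.72 TPM in knockout cells with PBS, and at 137 ± 8.68 and 64.9 ± 0.756 TPM with Candida albicans, so 48.6% and 47.4% of the wild-type level remained. All 8 macrophage markers were present, with a sum, most of it Lyz2, of 25731 to 26277 TPM in wild type with PBS and 21935 to 23370 TPM with the fungus, and of 15425 to 15664 and 15969 to 16078 TPM in the knockout. The markers in this sum did not all move together. In reads a library with PBS, not scaled for depth, Lyz2 had 153401 to 171129 in wild type and 70346 to 111913 in the knockout. Itgam likewise had 4888 to 5484 and 2875 to 4462, while Cd68 had 22830 to 25682 and 28607 to 44940. Of 10 red-cell-lineage markers, 9 were under 1 TPM in every library, 6 of them at 0, and the sum was 1.25 to 3.14 TPM. Of 10 neutrophil markers, 8 were under 1 TPM and 3 of these at 0, and the sum was 2.21 to 2.75 TPM in PBS-treated wild-type cells, 6.56 to 8.14 TPM in wild-type cells with the fungus, and 3.06 to 5.68 TPM in the knockout. In reads a library, S100a8 had 3 to 30, against at most 5 for any other neutrophil marker. Summed proliferation markers were at 437 to 472 TPM in PBS-treated wild-type cells and at 510 to 649 TPM in the other groups. Most reads of these markers were of Pcna, with 3810 to 7452 a library, against at most 565 for any other. The others did not all follow Pcna. With PBS, not scaled for depth, Mki67 had 268 to 316 reads in wild type and 137 to 217 in the knockout. Pcna had 3810 to 4164 and 4459 to 7279. In the authors' deposited table for the wild-type groups, the log2 change was 0.59 for Pcna and 0.76 for Mki67. It was -0.43 for Top2a, -0.51 for Mcm2 and -1.59 for Plk1. Of 4 B-cell markers found, 3 were under 1 TPM in every library, and the sum was 2.09 to 2.68 TPM in wild type with PBS, 0.159 to 0.471 TPM in wild type with the fungus and 0.558 to 1.40 TPM in the knockout. The part of the macrophage, neutrophil, B-cell and proliferation marker shifts in the results below was not tested, and in bulk RNA fewer cells of a type and less RNA per cell cannot be told apart. The first wild-type library with Candida albicans stood apart from its replicates: the chi-square per degree of freedom was 16.2 and 15.3 against them and 1.49 to 4.60 in all other replicate pairs. Where leaving it out changed a call among the 10 genes, that is said beside the value. Values of the wider list include it.

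All 10 genes passed the filter of at least 1 TPM in at least 3 libraries. By mean TPM over the 12 libraries, Ftl1 and Fth1, the light and heavy chains of ferritin, ranked 1 and 2 of all genes. Hmox1 ranked 134, Slc11a1 263, Ncoa4 1473, Slc11a2 2305, Aco1 3641, Tfrc 3742, Ireb2 4195 and Slc40a1 6316. The neighbours Aco1 and Tfrc overlapped over the libraries (34.3 to 44.4 TPM and 31.9 to 40.3 TPM), as did Tfrc and Ireb2 (26.7 to 37.7 TPM). The depth behind the lowest of them, Slc40a1, was 275 to 700 reads a library, against 192586 to 543390 reads for the ferritin chains.

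**Figure D1:**
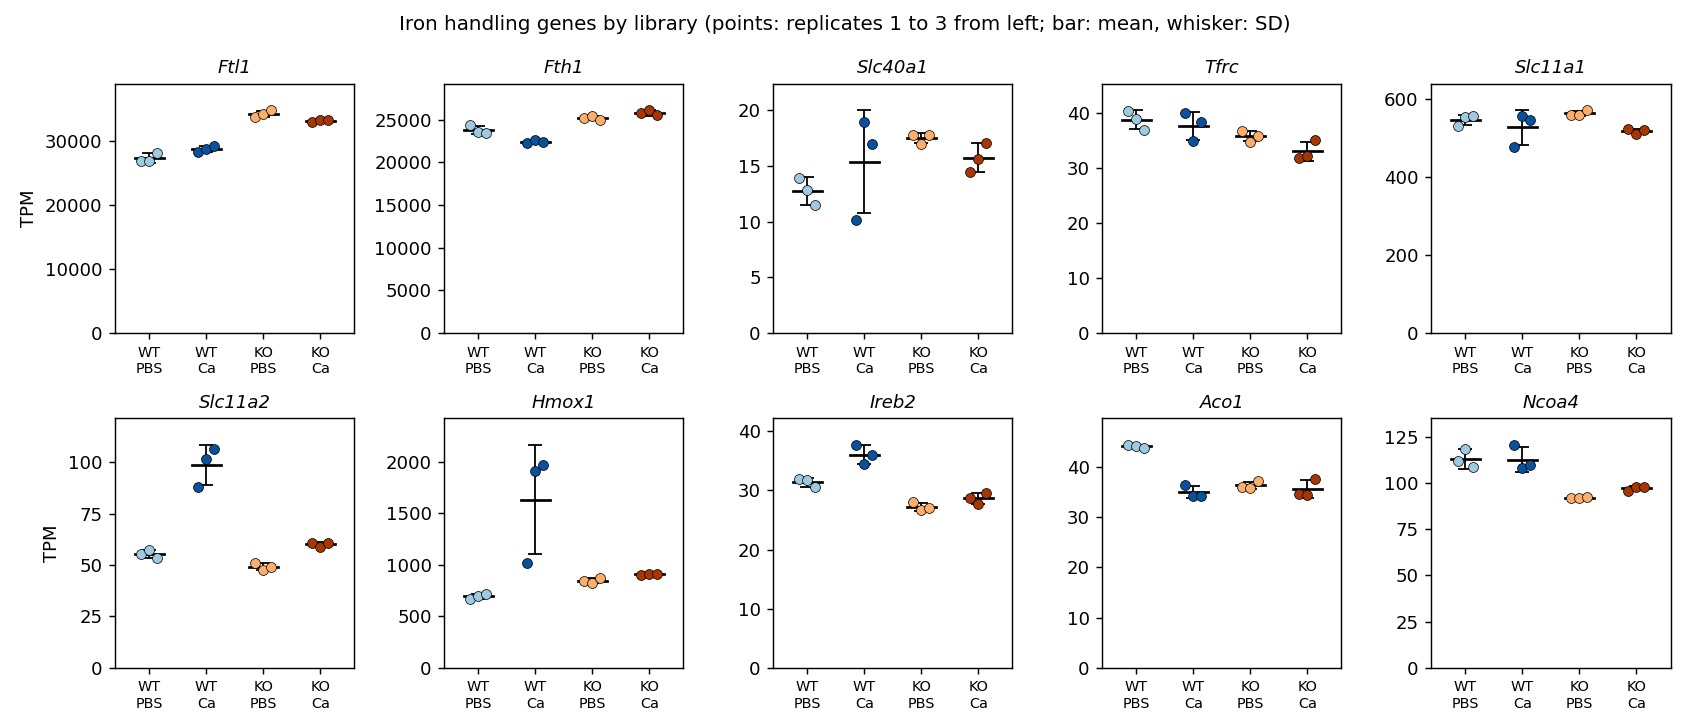
Level in TPM (vertical axis, a scale for each gene) of the 10 iron handling genes in wild-type (WT) and Piezo1 knockout (KO) macrophages with PBS or Candida albicans (Ca). Points are libraries, bars means and whiskers SD over 3 libraries. Slc11a2 and Hmox1 are highest in wild-type cells with the fungus, where the first library lies below the other replicates.

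In wild-type cells with Candida albicans, Hmox1, Slc11a2, Ireb2 and Ftl1 were higher than with PBS, and Aco1 and Fth1 were lower. Knockout cells with the fungus had more Slc11a2 than knockout cells with PBS. A gene was called at an adjusted p under 0.05 in limma on log2(TPM + 1), fitted over all 12 libraries with Benjamini-Hochberg adjustment over the 11283 genes tested. By that rule 44.4% of all tested genes were called in wild type, 16.1% higher and 28.3% lower, and of the 10 genes 6 were called, 4 higher and 2 lower. In the knockout 7.08% of tested genes were called, 3.94% higher and 3.14% lower, and of the 10 genes 1 was called higher and 0 lower by limma, with 1 in each direction at an unadjusted p under 0.05. The share of the 10 genes called was near the background in both genotypes. In the authors' deposited table for the wild-type groups, the log2 change was 1.32 for Hmox1, 0.92 for Slc11a2, 0.28 for Ireb2, 0.16 for Ftl1 and -0.26 for Aco1, all with an adjusted p under 0.05 there. The median log2 change of the 10 genes was 0.04 in wild type and 0.00 in the knockout, and that of all tested genes was -0.07 and -0.04. The share of all called genes that were higher moved with the scaling: it was 36.2% in wild type as deposited, 55.5% with median-ratio factors and 45.6% with upper-quartile factors, and in the knockout 55.7%, 78.1% and 69.7%.

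Between genotypes, knockout cells had more Ftl1 and Fth1 and less Ireb2, Aco1 and Ncoa4 than wild-type cells with PBS. With the fungus they had more Ftl1 and Fth1 and less Hmox1, Slc11a2, Ireb2, Ncoa4 and Tfrc, of which Tfrc turned direction once the trends with length and GC content were removed. The background was 32.3% of tested genes called with PBS, 6.14% higher and 26.1% lower, and 39.9% with Candida albicans, 12.4% higher and 27.5% lower. Of the 10 genes 5 were called with PBS, 2 higher and 3 lower, and 7 with the fungus, 2 higher and 5 lower. Their median log2 difference was -0.03 with PBS and -0.10 with the fungus, beside -0.08 and -0.05 for all tested genes. In the interaction, which tests whether the response differed between genotypes, 13.9% of tested genes were called, 7.52% higher and 6.33% lower, and of the 10 genes 5 were called, Fth1 and Aco1 higher and Hmox1, Slc11a2 and Ftl1 lower. Comparisons that share a group, such as the wild-type response and the knockout difference with the fungus, are not independent of each other.

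**Figure D2:**
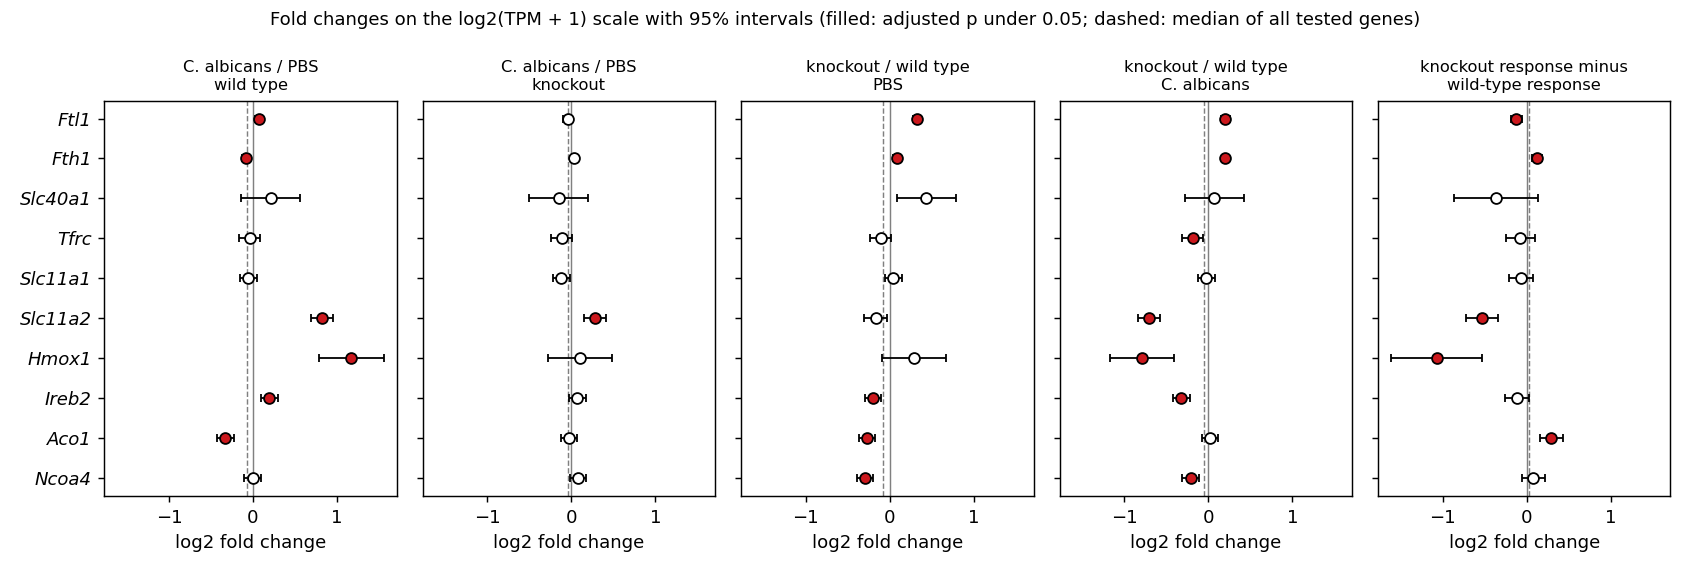
Log2 fold change on the log2(TPM + 1) scale (horizontal axis) of the 10 genes in each of 5 comparisons, with 95% intervals; filled points have an adjusted p under 0.05 and the dashed line is the median of all tested genes. In the interaction, Hmox1 at -1.07 and Slc11a2 at -0.53 lie farthest from 0.

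Heme oxygenase 1, encoded by Hmox1 (gene 15368, chr8:75093618-75100593), opens the heme ring and frees its iron. Wild-type libraries held 669, 696 and 715 TPM with PBS and 1018, 1908 and 1962 TPM with Candida albicans. Knockout libraries held 843, 822 and 872 TPM with PBS and 904, 908 and 909 TPM with the fungus. All 3 wild-type libraries with the fungus were above all other libraries, but the first of them was well below the other replicates and close to the knockout. The log2 change in wild type was 1.17 (SE 0.18, adjusted p = 1.9e-04), with means of 693 ± 23.0 and 1629 ± 530 TPM (SD, n = 3). In the knockout it was 0.10 (95% interval -0.28 to 0.48, adjusted p = 0.779), although the 2 sets of knockout libraries did not overlap. The response was lower in the knockout by an interaction of -1.07 (SE 0.25, adjusted p = 0.0136), and with the fungus knockout cells held 55.7% of the wild-type level (log2 -0.78, adjusted p = 0.00347). With PBS the knockout mean was 122% of wild type, every knockout library was higher and the log2 difference was 0.29 (adjusted p = 0.240).

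Much of the spread in Hmox1 came from the first wild-type library with the fungus. Without it the wild-type response was 1.48, the interaction -1.38 (adjusted p = 2.0e-09) and the knockout difference with the fungus -1.09. The difference with PBS then passed the test at the same size (0.29, adjusted p = 9.9e-06), as did the response in the knockout (0.10, adjusted p = 0.0308). Both also passed where only the compared groups were fitted (adjusted p = 2.4e-04 and 0.0224). The wild-type response, the knockout difference with the fungus and the interaction kept their direction and their call under all alternatives tried.

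Slc11a2 (gene 18174, chr15:100387898-100424209) encodes DMT1, a proton-coupled iron importer of the plasma membrane and endosomes. Wild-type libraries held 55.3, 57.3 and 53.5 TPM with PBS and 87.8, 102 and 106 TPM with Candida albicans. Knockout libraries held 51.0, 47.5 and 48.9 TPM with PBS and 60.8, 58.5 and 60.8 TPM with the fungus. In both genotypes the libraries with the fungus were above those with PBS, and those of the knockout with the fungus lay only just above wild type with PBS. The mean rose to 178% in wild type (log2 0.82, SE 0.06, adjusted p = 4.2e-07) and to 122% in the knockout (log2 0.28, SE 0.06, adjusted p = 0.0139). The response was smaller in the knockout, with an interaction of -0.53 (SE 0.09, adjusted p = 0.00155), and knockout cells with the fungus held 60.9% of the wild-type level (log2 -0.70, adjusted p = 2.8e-06). Leaving out the second or the third knockout PBS library, or the first or the third knockout library with the fungus, ended the call in the knockout, with an adjusted p of 0.0515 to 0.0556 at log2 0.26 to 0.28. The difference with PBS was -0.17 (adjusted p = 0.0501), with every knockout library below every wild-type one. It passed at the same size without the first wild-type library with the fungus (adjusted p = 0.00511), without the third (adjusted p = 0.0339) and with only the compared groups fitted (adjusted p = 0.0202), and it was 0.04 (adjusted p = 0.766) once the trends with gene length and GC content were removed. The long noncoding RNA Gm5475 overlaps Slc11a2 by 1017 bases, and it held at most 5 reads in any library.

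Slc11a1 (gene 18173, chr1:74375014-74386057) encodes NRAMP1, the related transporter that moves divalent metals out of the phagosome and is known for its part in resistance to intracellular microbes. Wild-type libraries held 531, 553 and 556 TPM with PBS and 477, 558 and 547 TPM with Candida albicans. Knockout libraries held 559, 560 and 571 TPM with PBS and 522, 512 and 520 TPM with the fungus. The knockout libraries were apart by treatment, and the wild-type ones overlapped, with the first library with the fungus low and its replicates not. The log2 change was -0.06 (adjusted p = 0.360) in wild type and -0.12 (95% interval -0.22 to -0.02, adjusted p = 0.142) in the knockout, and the interaction was -0.07 (adjusted p = 0.572). Without the first wild-type library with the fungus the knockout response of -0.12 passed (adjusted p = 0.00479), as did the interaction at -0.14 (adjusted p = 0.0141) and the knockout difference with the fungus at -0.09 (adjusted p = 0.0124). With only the compared groups fitted, the knockout response passed as well (adjusted p = 0.00494).

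Tfrc (gene 22042, chr16:32608896-32632794) encodes the transferrin receptor and carries the 4 elements shown above. Wild-type libraries held 40.3, 38.9 and 36.9 TPM with PBS and 39.9, 34.9 and 38.2 TPM with Candida albicans. Knockout libraries held 36.7, 34.8 and 35.9 TPM with PBS and 31.9, 32.2 and 35.0 TPM with the fungus. The groups with the fungus overlapped between genotypes by the second wild-type library alone. The log2 change with the fungus was -0.04 (95% interval -0.16 to 0.09, adjusted p = 0.605) in wild type and -0.11 (95% interval -0.24 to 0.01, adjusted p = 0.257) in the knockout. With the fungus knockout cells were lower by a log2 difference of -0.18 (SE 0.06, adjusted p = 0.022), but median-ratio factors gave -0.12 (adjusted p = 0.0755), upper-quartile factors -0.08 (adjusted p = 0.222) and removal of the length and GC trends 0.06 (adjusted p = 0.375). Leaving out the first or the third wild-type library or the first or second knockout library with the fungus also ended that call, with an adjusted p of 0.0642 to 0.0822 at log2 -0.14 to -0.17. Removing the length and GC trends brought the wild-type response to -0.14 (adjusted p = 0.0381).

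Ftl1 (gene 14325, chr7:45457944-45459886) and Fth1 (gene 14319, chr19:9980600-9985111) encode the chains of the ferritin shell, of which the heavy chain oxidises iron and the light chain helps to build the mineral core. For Ftl1, wild-type libraries held 26905, 26974 and 28227 TPM with PBS and 28309, 28806 and 29333 TPM with Candida albicans. Knockout libraries held 33859, 34200 and 34833 TPM with PBS and 32977, 33364 and 33325 TPM with the fungus. Every knockout library was above every wild-type library, by a log2 difference of 0.33 (SE 0.02, adjusted p = 1.3e-06) with PBS and 0.21 (SE 0.02, adjusted p = 1.7e-05) with the fungus. Both calls held under all alternatives tried, and the difference with the fungus was 0.07 once the length and GC trends were removed. The wild-type response of Ftl1 was 0.07 (SE 0.02, adjusted p = 0.0161), the knockout response -0.05 (adjusted p = 0.237) and the interaction -0.12 (adjusted p = 0.0242). Small as they are, the calls of the response and of the interaction were lost with no filter on low values (adjusted p = 0.408 and 0.476) and with the variance trend off (adjusted p = 0.112 and 0.149). The response was also lost without the first or second wild-type PBS library or the third wild-type library with the fungus (adjusted p 0.0621 to 0.0716), and the interaction without any of 6 single libraries (adjusted p 0.0501 to 0.0662). Fitting only the compared groups also ended the call of the response, and upper-quartile factors ended that of the interaction.

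For Fth1, wild-type libraries held 24387, 23616 and 23490 TPM with PBS and 22233, 22579 and 22397 TPM with Candida albicans. Knockout libraries held 25202, 25481 and 24976 TPM with PBS and 25762, 26105 and 25513 TPM with the fungus. The 3 wild-type libraries with the fungus were the lowest of the 12 and the knockout libraries the highest. The heavy chain thus moved less between genotypes with PBS (log2 0.08, SE 0.02, adjusted p = 0.00621) than with the fungus (log2 0.20, SE 0.02, adjusted p = 5.7e-06), with an interaction of 0.12 (adjusted p = 0.0112). The wild-type response was -0.09 (SE 0.02, adjusted p = 0.0025) and the knockout response 0.03 (adjusted p = 0.339). The wild-type response was -0.01 (adjusted p = 0.808) with median-ratio factors and -0.04 (adjusted p = 0.117) with the length and GC trends removed, and in the authors' deposited table, which compares the same wild-type groups, it was -0.01 (adjusted p = 0.866). The interaction was 0.08 (adjusted p = 0.128) with median-ratio factors. Upper-quartile factors also ended the calls of the wild-type response and of the interaction. Removing the length and GC trends with the replicate block added ended that of the interaction too. With no filter on low values or with the variance trend off, the response, the PBS difference and the interaction of Fth1 were not called (adjusted p 0.0506 to 0.406). The difference with the fungus kept its call under all alternatives tried. Of 15 other ferritin-named loci in the RefSeq annotation, 8 were in the table and 0 of these held a read, and how reads shared by the ferritin genes and their processed copies were counted is not stated in the sources used here, so the levels of both chains are uncertain to that extent.

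Both chains together made up 5.12% ± 0.0569 of all TPM in PBS-treated wild-type cells, 5.12% ± 0.0611 in wild-type cells with the fungus, 5.95% ± 0.0400 in knockout cells with PBS and 5.90% ± 0.0396 in knockout cells with the fungus (SD, n = 3). The ferritin share was higher in every knockout library than in every wild-type library, and the groups of 1 genotype overlapped.

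Ncoa4 (gene 27057, chr14:32159879-32179855) encodes the receptor that carries ferritin to the lysosome, where its iron is set free. Wild-type libraries held 112, 119 and 109 TPM with PBS and 121, 108 and 110 TPM with Candida albicans. Knockout libraries held 92.0, 92.0 and 92.3 TPM with PBS and 95.9, 97.7 and 97.9 TPM with the fungus. All 6 knockout libraries were below all 6 wild-type libraries. The log2 difference was -0.29 (SE 0.04, adjusted p = 4.0e-04) with PBS and -0.21 (SE 0.04, adjusted p = 0.00243) with the fungus, so the ferritin receptor was lower where the ferritin chains were higher. With the length and GC trends removed they were -0.14 (adjusted p = 0.0166) and -0.04 (adjusted p = 0.473). The response was 0.00 in wild type (adjusted p = 0.946, 95% interval -0.10 to 0.09) and 0.08 in the knockout (adjusted p = 0.330).

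Slc40a1 (gene 53945, chr1:45908070-45926532) encodes ferroportin, the known exporter of iron from cells. Wild-type libraries held 13.9, 12.9 and 11.5 TPM with PBS and 10.1, 18.9 and 17.0 TPM with Candida albicans. Knockout libraries held 17.8, 17.0 and 17.8 TPM with PBS and 14.5, 15.7 and 17.1 TPM with the fungus. The first wild-type library with the fungus was the lowest of the 12 and the second the highest, and every knockout PBS library was above every wild-type PBS library. No comparison passed over all libraries. The log2 difference between genotypes with PBS was 0.43 (SE 0.16, adjusted p = 0.0583), and it passed at 0.53 with median-ratio factors (adjusted p = 0.0351), at 0.54 with upper-quartile factors (adjusted p = 0.032) and at 0.52 with the length and GC trends removed (adjusted p = 0.0466). The wild-type response was 0.21 (95% interval -0.14 to 0.56, adjusted p = 0.312) and the interaction -0.36 (adjusted p = 0.340). Without the first wild-type library with the fungus, the wild-type response was 0.47 (adjusted p = 7.2e-04), the interaction -0.62 (adjusted p = 0.00202) and the difference with PBS 0.43 (adjusted p = 8.0e-04). Without the second, the wild-type response was 0.05 (adjusted p = 0.839) and the interaction -0.20 (adjusted p = 0.618), and without the third they were 0.12 (adjusted p = 0.626) and -0.27 (adjusted p = 0.540).

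Aco1 (gene 11428, chr4:40143265-40199009) encodes iron regulatory protein 1, which is an aconitase when it holds an iron-sulfur cluster and binds the elements when it does not. Wild-type libraries held 44.4, 44.2 and 43.9 TPM with PBS and 36.4, 34.3 and 34.3 TPM with Candida albicans. Knockout libraries held 36.1, 35.9 and 37.2 TPM with PBS and 34.7, 34.5 and 37.7 TPM with the fungus. The 3 wild-type PBS libraries stood above all others, and the other 3 groups overlapped. Aco1 fell to 79.3% of its PBS level in wild type (log2 -0.33, SE 0.04, adjusted p = 8.5e-05) and was at 97.8% in the knockout (log2 -0.03, 95% interval -0.13 to 0.07, adjusted p = 0.720). The interaction was 0.30 (SE 0.06, adjusted p = 0.00836), and it and the wild-type response were called under all alternatives tried. The knockout with PBS was at 82.5% of wild type (log2 -0.27, adjusted p = 6.3e-04), which became -0.13 (adjusted p = 0.0503) with the length and GC trends removed in a fit with the replicate block. With the fungus the genotypes differed by 0.02 (95% interval -0.07 to 0.12, adjusted p = 0.696), a value that passed at 0.13 with upper-quartile factors (adjusted p = 0.0213) and at 0.11 with the length and GC trends removed (adjusted p = 0.0353).

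Ireb2 (gene 64602, chr9:54862658-54912534) encodes iron regulatory protein 2, whose amount is set by iron-dependent breakdown. Wild-type libraries held 31.9, 31.8 and 30.5 TPM with PBS and 37.7, 34.5 and 35.9 TPM with Candida albicans. Knockout libraries held 28.0, 26.7 and 27.0 TPM with PBS and 28.6, 27.7 and 29.6 TPM with the fungus. All 6 knockout libraries were below all 6 wild-type libraries, and in wild type the fungus libraries were the higher ones. The wild-type response was 0.19 (SE 0.05, adjusted p = 0.00512) and the knockout response 0.07 (adjusted p = 0.381), with an interaction of -0.12 (95% interval -0.26 to 0.02, adjusted p = 0.265). The difference between genotypes was -0.20 (adjusted p = 0.00577) with PBS and -0.32 (adjusted p = 1.6e-04) with the fungus. With the length and GC trends removed these were -0.04 (adjusted p = 0.621) and -0.05 (adjusted p = 0.433), and the wild-type response was 0.08 (adjusted p = 0.182). With median-ratio factors the PBS difference was -0.10 (adjusted p = 0.0816), and with upper-quartile factors it was not called either.

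Ratios between genes of 1 library do not depend on a factor that scales the whole library, and they are given as descriptions. The trends with length and GC content between genotypes were not removed from them, and can move a ratio of genes of unlike length, such as Tfrc to Fth1. The Fth1 to Ftl1 ratio was 0.871 ± 0.0373 (SD, n = 3) in PBS-treated wild-type cells, 0.778 ± 0.0122 in wild-type cells with the fungus, 0.735 ± 0.0160 in knockout cells with PBS and 0.776 ± 0.00939 in knockout cells with the fungus. The ratio was lower with the fungus in wild type and higher with it in the knockout, with no overlap between treatments in either genotype. The Ireb2 to Aco1 ratio, of the 2 iron regulatory proteins, was 0.712 ± 0.0137 in PBS-treated wild-type cells and 1.03 ± 0.0214 with the fungus, and 0.748 ± 0.0252 and 0.805 ± 0.0192 in the knockout. In wild-type cells with the fungus alone the transcripts of both stood at about the same TPM. The Slc11a2 to Slc11a1 ratio went from 0.101 ± 0.00436 to 0.187 ± 0.00663 in wild type and from 0.0872 ± 0.00359 to 0.116 ± 0.00133 in the knockout, and the first wild-type library with the fungus was close to its replicates in this ratio and in that of Ireb2 to Aco1. Tfrc transcripts per 1000 Fth1 transcripts numbered 1.62 ± 0.0466 and 1.68 ± 0.127 in wild type with PBS and with the fungus, and 1.42 ± 0.0479 and 1.28 ± 0.0800 in the knockout.

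**Figure D3:**
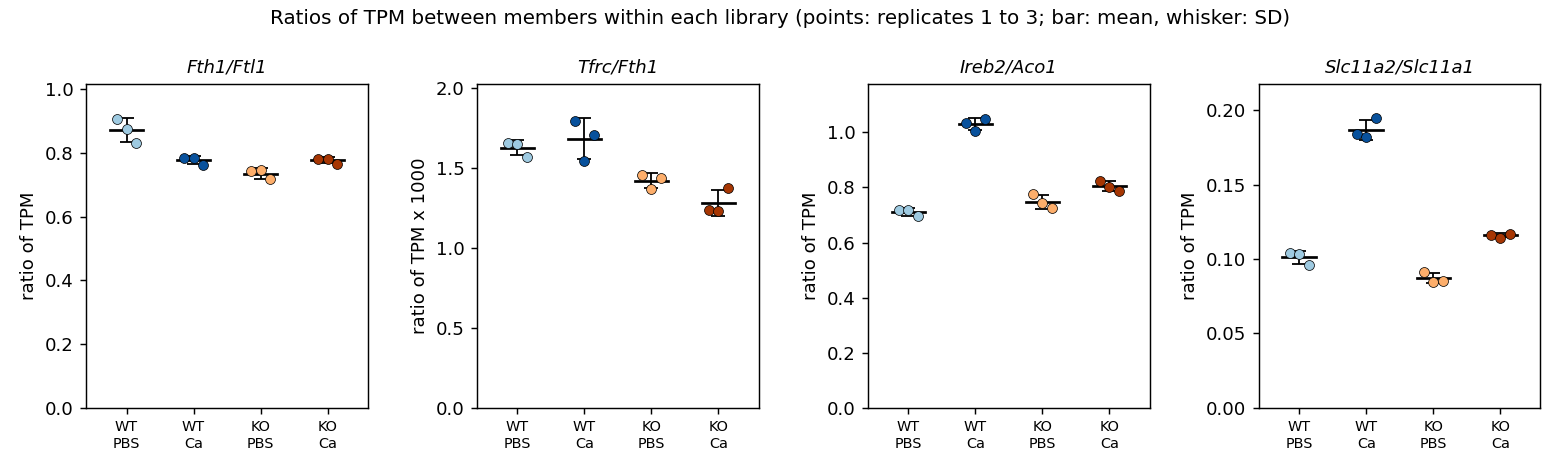
Ratios of TPM between pairs of the genes within each library (vertical axes from 0; Tfrc to Fth1 is multiplied by 1000) in wild-type (WT) and knockout (KO) macrophages with PBS or Candida albicans (Ca). Points are libraries, bars means and whiskers SD over 3 libraries. Ireb2 to Aco1 and Slc11a2 to Slc11a1 are highest in the 3 wild-type libraries with the fungus.

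Differences between genotypes moved with transcript length over all tested genes: Spearman's rho of log2 difference with length was -0.462 with PBS and -0.400 with the fungus, beside 0.018 for the wild-type response and -0.037 for the knockout response, as a description over genes, which are not independent. By length, Ftl1 stood at percentile 8.92 of the tested genes, Hmox1 at 20.3, Fth1 at 26.3 and Slc11a1 at 36.1, against 70.7 for Aco1, 70.9 for Ncoa4, 79.6 for Tfrc and 84.8 for Ireb2 and Slc11a2. Upper-quartile factors moved the median of all genes with PBS from -0.08 to 0.02. The share of called genes that were higher in the knockout was 19.0% with PBS as deposited, 50.2% with median-ratio and 56.3% with upper-quartile factors, and 31.1%, 46.9% and 58.1% with the fungus. In the interaction that share was 54.3% as deposited and 41.2% with median-ratio factors.

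**Figure D4:**
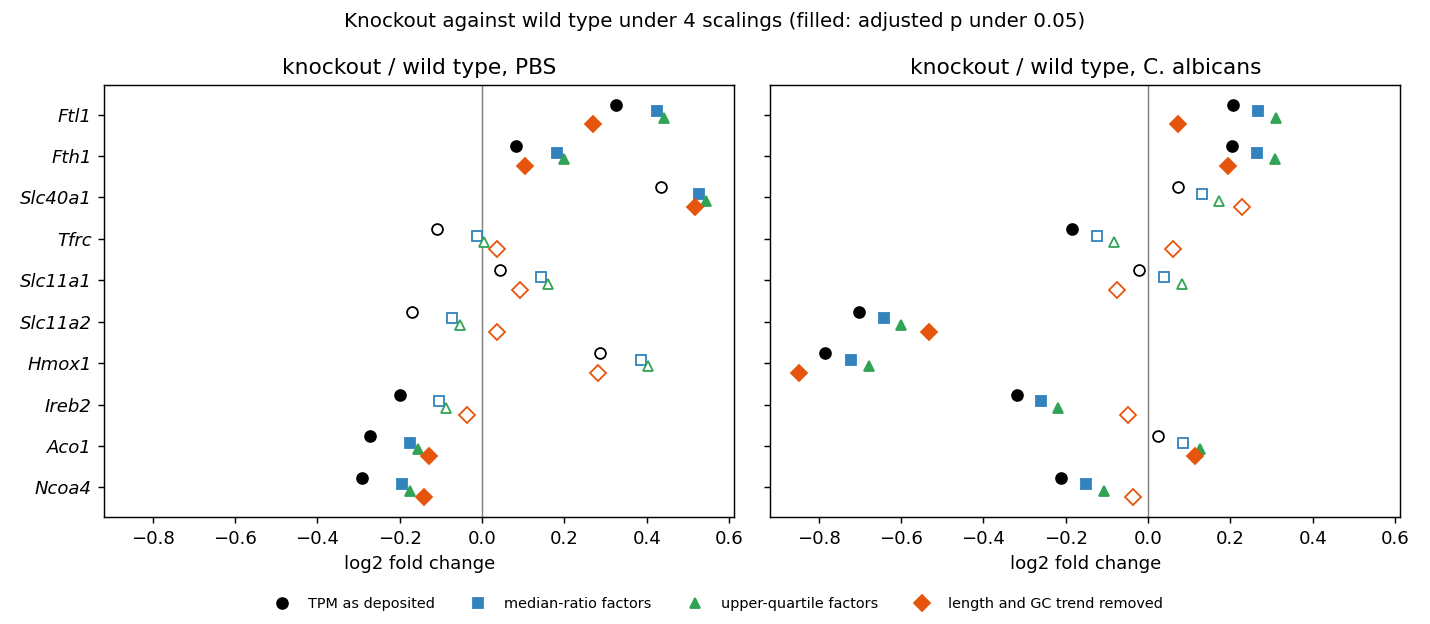
Knockout against wild type as log2 fold change (horizontal axis) for the 10 genes with PBS (left) and with Candida albicans (right), under TPM as deposited, median-ratio factors, upper-quartile factors and removal of each library's length and GC trend; filled symbols have an adjusted p under 0.05. Ftl1 and Fth1 lie above 0 and Hmox1 and Slc11a2 with the fungus lie below 0 in all 4, while Ireb2 with PBS goes from -0.20 to -0.04.

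A wider list of 72 genes of iron and heme biology, of which 52 were tested, gave the setting, and its counts stand beside the shares of all tested genes. In wild type with Candida albicans 7 were higher and 21 lower (15 higher and 12 lower with median-ratio factors), and in the knockout 3 were higher and 2 lower, where 16.1% and 28.3% of all tested genes were higher and lower in wild type and 3.94% and 3.14% in the knockout. Between genotypes 5 were higher and 17 lower in the knockout with PBS (12 and 5 with upper-quartile factors), and 11 were higher and 12 lower with the fungus (24 and 8 with upper-quartile factors). Over all tested genes 6.14% were higher and 26.1% lower with PBS, and 12.4% and 27.5% with the fungus. In the interaction 5 were higher and 2 lower (5 and 6 with median-ratio factors), beside 7.52% and 6.33% of all tested genes. The counts of the sublists below are small and are read against the same shares. The median log2 value of the 52 was -0.06 in the wild-type response and -0.02 in the knockout response, and -0.05 with PBS and 0.04 with the fungus between genotypes. All of these lie within 0.1 of the medians of all tested genes.

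Of 12 tested genes of heme handling, 3 were higher and 3 lower in wild type with the fungus. Spic, a transcription factor of iron-recycling macrophages, went from 7.91 ± 0.780 to 47.6 ± 8.66 TPM (SD, n = 3) in wild type (log2 2.43, SE 0.12) and from 8.90 ± 1.02 to 20.01 ± 1.87 TPM in the knockout (log2 1.09, adjusted p = 1.0e-04). The Spic response was smaller in the knockout, with an interaction of -1.35 (adjusted p = 3.6e-04) that was called under all alternatives tried. Nfe2l2, encoding NRF2, a known activator of Hmox1 and ferritin genes, rose in both genotypes, by 0.65 in wild type and 0.50 in the knockout. With the fungus Nfe2l2 was lower in the knockout than in wild type by a log2 difference of -0.32 (adjusted p = 2.5e-05). Bach1, encoding the heme-sensing repressor of Hmox1, rose by 0.20 (adjusted p = 0.00229) in wild type and was lower in the knockout with the fungus by -0.37. Hmox2, the constitutive heme oxygenase, fell by 0.41 on the log2 scale in wild type, unlike Hmox1, and changed by 0.00 in the knockout, with an interaction of 0.41 (adjusted p = 5.9e-04). With PBS, 2 of the 12 were higher and 3 lower in the knockout. Lrp1, the receptor for heme-bound hemopexin, was lower by a log2 difference of -0.65 (adjusted p = 1.3e-05). Bach1 was at -0.23 (adjusted p = 0.00152) and Nfe2l2 at -0.18 (adjusted p = 0.00286), and both calls were lost with the length and GC trends removed. Slc48a1, which moves heme out of the phagolysosome, was higher by 0.27 (adjusted p = 7.5e-04).

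Of 8 tested genes of iron uptake and reduction, 1 was higher and 5 were lower in wild type with the fungus. Slc39a14, encoding the iron and zinc importer ZIP14, rose from 9.47 ± 0.38 to 12.2 ± 0.74 TPM (log2 0.34, adjusted p = 8.2e-04). Hfe, whose protein binds the transferrin receptor, fell from 56.1 to 37.0 TPM in wild type (log2 -0.59, adjusted p = 8.8e-07), and its interaction was 0.49 (adjusted p = 4.6e-04). Trf, encoding transferrin, fell in wild type (log2 -0.20) and rose in the knockout (log2 0.19, adjusted p = 0.00218), with an interaction of 0.39 (adjusted p = 1.4e-04). Steap3, the endosomal ferric reductase, fell by 0.31 on the log2 scale in wild type.

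Of 11 genes of export and systemic control only 2 were expressed enough to be tested, and both fell in wild type with the fungus. Lcn2, whose protein binds bacterial siderophores, changed by -1.05 (adjusted p = 4.8e-06) in wild type and -0.60 (adjusted p = 0.003) in the knockout. Cp, encoding the ferroxidase ceruloplasmin, changed by -0.93 (adjusted p = 2.6e-04) in wild type, with an interaction of 0.89 (adjusted p = 0.0134). With PBS Cp was already lower in the knockout, by a log2 difference of -0.81 (adjusted p = 0.00117). Of 7 tested storage and chaperone genes 2 were higher and 2 lower in wild type. Bdh2, at 0.59 (adjusted p = 1.9e-04), was called under all alternatives tried, while the calls of Herc2 (-0.14), Fbxl5 (0.19) and Pcbp2 (-0.10) ended on leaving out any of 10, 8 and 2 single libraries. Between genotypes 3 of the 7 were lower with PBS, led by Herc2 at -0.70 (adjusted p = 2.5e-06). Of 23 mitochondrial iron and heme synthesis genes 1 was higher and 9 were lower in wild type. The higher one was Slc25a37, encoding the mitochondrial iron importer mitoferrin 1, from 61.5 ± 1.92 to 88.6 ± 0.768 TPM (log2 0.52, adjusted p = 1.7e-07), with 0.07 in the knockout and an interaction of -0.45 (adjusted p = 1.1e-04). Among the lower ones, Ppox and Urod of heme synthesis changed by -0.46 and -0.31.

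**Figure D5:**
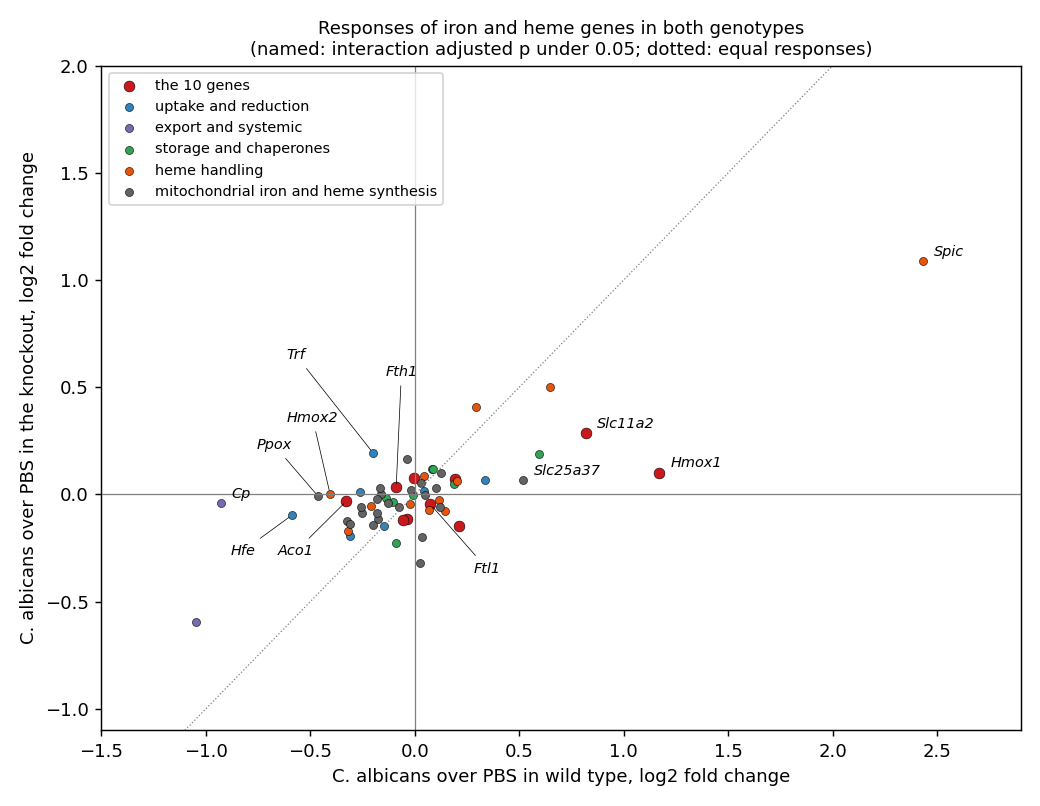
Log2 fold change with Candida albicans in wild type (horizontal axis) and in the knockout (vertical axis) for the 10 genes and the 52 tested genes of the wider list; the dotted line marks equal responses and names are given where the interaction had an adjusted p under 0.05. Spic (2.43 and 1.09), Hmox1, Slc11a2 and Slc25a37 lie right of the line.

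Likeness of pattern was measured as the root mean square difference of log2(TPM + 1) over the 12 libraries after centring each gene, for the genes among the 10 whose group means spanned at least 0.5. Nearest to Slc11a2 were Fam20c (0.0592) and Ccr3 (0.0626), and nearest to Hmox1 were Txnrd1 (0.132) and Tes (0.134).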

How the data were processed

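Per the submitters' processing notes, reads were handled with CASAVA 1.8, cutadapt 2.6, STAR 2.7.5a and DESeq2 1.34.0 on mm10. No read counter, strand setting or annotation is named there. The deposited table, per the file headers, holds the authors' TPM for each of 12 libraries, a mean normalised count (signal) and 1 comparison with log2 fold change, standard error, test score and p-value, which matched wild-type Candida albicans over PBS by value. Whole reads were recovered from TPM and the deposited mean counts within 0.01 of a read. They were used for depth, the reads given for single genes, the chi-square between replicates and the simulated data. Gene lengths came from the same recovery.

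Tests used limma 3.58.1 (R 4.3.3) on log2(TPM + 1) over all 12 libraries, 1 mean a group (8 residual degrees of freedom), variance trend on, genes at 1 TPM or more in 3 or more libraries, two-sided tests and Benjamini-Hochberg adjustment over 11283 genes in each of 5 comparisons, at 0.05. The code was tested on simulated data. Named genes were the 10 members and, of a wider list, up to 4 genes per sublist and comparison by smallest adjusted p. The members and lists were chosen with earlier results of these data known. Alternatives were median-ratio and upper-quartile factors, other pseudocounts and filters, trend off, a replicate block, removal of length and GC trends (97.6% of genes had both), fits of the compared groups alone and leaving out each library. Same-numbered libraries did not deviate together, so the block is only an alternative. Coordinates are those of GRCm38.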

Additional observations from a re-analysis of the deposited data

Results flagged for a closer look

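The response to Candida albicans differed between wild-type and Piezo1 knockout cells by the interaction test in 5 of the 10 iron handling genes, beside 13.9% of all tested genes. Since the 10 genes were chosen with earlier results of these data known, no excess is read from these shares. The log2 interaction, knockout response minus wild-type response, was -1.07 for Hmox1, -0.53 for Slc11a2 and -0.12 for Ftl1, and 0.30 for Aco1 and 0.12 for Fth1. Those of Hmox1, Slc11a2 and Aco1 were called under all 22 alternatives. Those of Ftl1 and Fth1 were not, as given beside their values above.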

How the results depend on the processing

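Over 1140 values of the 10 genes under 23 alternatives per comparison (22 for the interaction), 1061 stayed on their side of the threshold without a called value turning direction, 50 lost the call and 27 gained it. Direction turned in 30, of which 28 were called in neither fit. The other 2 were Tfrc in the knockout with the fungus, at 0.061 with the length and GC trends removed, without and with the replicate block. The number of the 10 genes called was 6, 1, 5, 7 and 5 (wild-type response, knockout response, knockout difference with PBS and with the fungus, interaction). Fits of the compared groups alone gave 3 in the knockout response and 8 in the PBS difference. Removing the length and GC trends with the replicate block gave 4 in the difference with the fungus. The interaction gave 3 with upper-quartile factors, 3 with no filter and 3 with the trend off. Leaving out 1 library gave 5 to 7, 0 to 3, 5 to 8, 6 to 7 and 4 to 7. The highest counts in the knockout response, the PBS difference and the interaction came without the first wild-type library with the fungus. The replicate block alone gave 6, 1, 5, 7 and 5. Correlations of same-numbered libraries' deviations were between -0.054 and 0.087.

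Over all genes, 3641 were called in the PBS difference, against 2036 with the length and GC trends removed and 1866 with the replicate block added. The knockout response had 799, against 1440 with the compared groups alone and 420 to 1490 leaving out 1 library. The interaction had 1563, against 1036 to 2526 leaving out 1 library. The cause of these changes was not tested. The planned count tests, edgeR and DESeq2 on recovered reads, were not run, since the deposited unit is TPM. Depth limits Slc40a1 most.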
